A study of Mus musculus with 6 samples.

Results

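Short reads of the ribosomal and messenger RNAs of the mitochondrial genome were followed in small RNA libraries of the mouse sensorimotor cortex. The reads come from 15 genes: the 12S rRNA (mt-Rnr1), the 16S rRNA (mt-Rnr2) and 13 mRNAs. They were chosen by sequence alone. A read of 17 to 34 nt was taken if it had no match in a miRNA hairpin or a mitochondrial tRNA and was found on the sense strand, with no mismatch, in 1 of these transcripts. Of 115958638 reads in the 6 libraries, 1060010 met the rule, as did 46766 of 2543604 distinct sequences. A small remainder of 59 sequences (117 reads) fitted 2 of the genes or 2 places and was left out of the counts per gene. All animals were male C57BL/6J mice operated on at postnatal day 90 and sampled 7 days later. In the SCI group (spinal cord injury, n = 3) the cervical cord had been cut through completely, and in the control group (n = 3) the cord had only been laid bare. Both groups were anaesthetised with isoflurane for the operation.

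Mitochondrial DNA is transcribed into long RNAs that hold many genes in a row. Transfer RNAs lie between most of the rRNAs and mRNAs, and cutting them out, by RNase P at the 5′ side and ELAC2 at the 3′ side, frees the neighbouring RNAs. Most of the freed rRNAs and mRNAs then receive adenosines at their 3′ ends. The 13 mRNAs code for core subunits of the respiratory chain and of ATP synthase, on which neurons draw heavily for ATP, and the 12S and 16S rRNAs form the small and the large subunit of the mitochondrial ribosome.

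The sequence that dominated this set was the very 5′ end of 16S rRNA. Its forms share the first base of the gene and differ in length, as the following reads show, in which capitals mark the bases beyond the 20-nt form. The gene lies on the plus strand of the mitochondrial chromosome at bases 1094 to 2675 in GRCm38, and the longest of these reads ends at base 1119.
16S, 20 nt: actaatcctagccctagccc
16S, 21 nt: actaatcctagccctagcccT
16S, 22 nt: actaatcctagccctagcccTA
16S, 24 nt: actaatcctagccctagcccTACA
16S, 25 nt: actaatcctagccctagcccTACAC
16S, 26 nt: actaatcctagccctagcccTACACA

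Levels below are RPM, that is, reads per 1000000 of all reads in the library, unless a percentage is named. Library totals ranged from 10585062 to 24480988 reads, 73.3% to 79.4% of which lay in miRNA hairpins. The labels give no batch or date. Reads of 30 to 34 nt made up 1.33%, 0.611% and 0.543% of control libraries 1, 2 and 3, and 0.584%, 3.66% and 2.31% of SCI libraries 1, 2 and 3, so SCI 2, SCI 3 and control 1 held the most long reads. The cortical neuron markers (10 hairpins of miR-124, miR-9 and miR-128) summed to 170521 to 181085 in control and 152830 to 167144 in SCI, lower in all 3 SCI libraries. The marker lists of oligodendrocytes, endothelium, myeloid cells, erythrocytes, skeletal muscle and choroid plexus overlapped between the groups. In such tissue samples, fewer cells of a type and less RNA per cell cannot be told apart.

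Together the 15 genes gave 0.786%, 0.824% and 0.879% of the reads in the control libraries, and 0.892%, 1.04% and 1.02% in the SCI libraries. Every SCI library lay above every control library. The 16S rRNA made up 83.3% to 94.2% of these reads in each library. Its levels were 7024, 7756 and 8060 in control 1 to 3 and 8354, 8659 and 9367 in SCI 1 to 3, with means of 7614 ± 532 and 8793 ± 520 (SD, n = 3 each). The groups did not overlap, with all SCI libraries higher. Among all 4423 gene features tested, 15.4% had every SCI library above every control library and 2.71% had every one below. The fitted log2 fold change of 16S was 0.21 ± 0.11 (SE), with an adjusted p of 0.533 in edgeR's quasi-likelihood test with Benjamini-Hochberg adjustment. Relative to the other features the direction turned: the log2 fold change was -0.11 under TMM scaling and -0.10 in DESeq2, which scale on the bulk of the features. With each distinct sequence counted 1 time it was -0.21, beside a median of -0.25 over all features in that setting. The median log2 fold change over all features was 0.31 per total reads and 0.013 under TMM scaling.

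**Figure D1:**
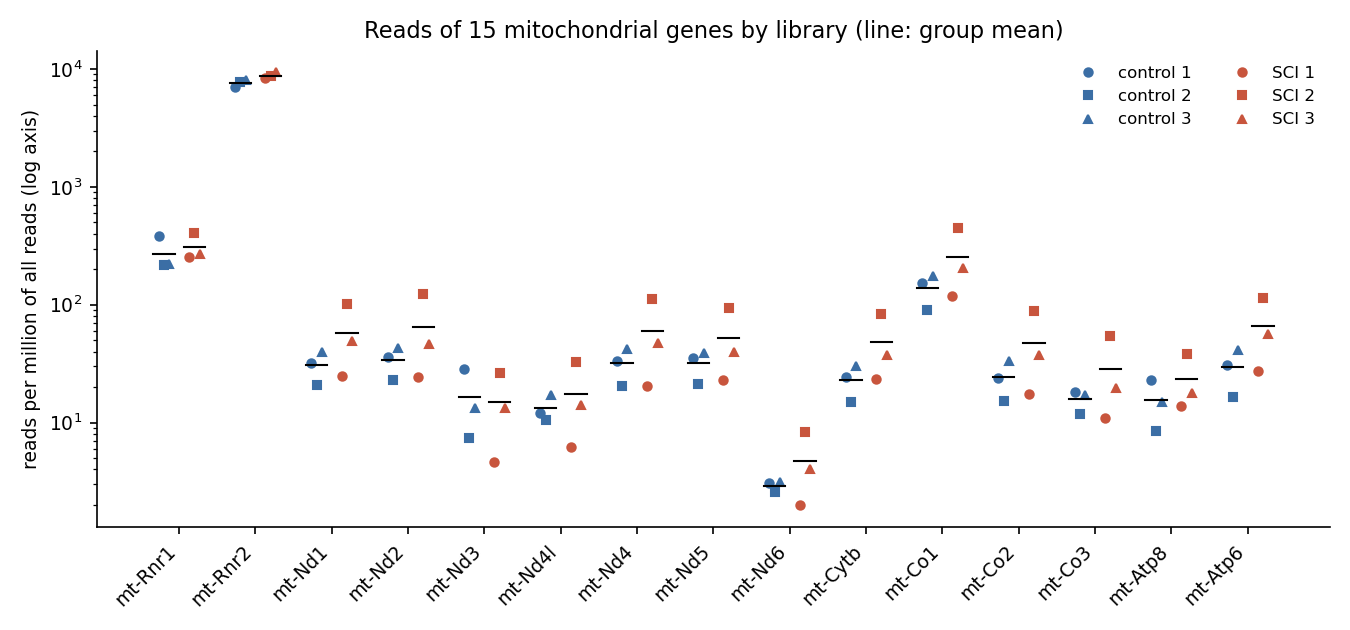
Reads of each gene in RPM (vertical log axis) in the 3 control (blue) and 3 SCI (red) libraries, with a line at each group mean. The 16S rRNA stands far above the other genes, and SCI 2 (red square) is the highest library for 12 of the 13 mRNAs.

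Almost all reads of 16S rRNA began at its first base. This share was 89.9%, 90.9% and 92.5% in control 1 to 3 and 94.5%, 92.7% and 95.1% in SCI 1 to 3. Reads from base 1 came to 6312, 7050 and 7459 in the control libraries and to 7898, 8028 and 8908 in the SCI libraries, a ratio of means of 1.19. The SCI libraries were all higher. The 20- and 21-nt forms held 56.6% to 61.9% of the reads from base 1, and the 24- and 25-nt forms 16.8% to 19.96%. Reads of 27 nt or longer held 0.0942% to 0.554%, although the files reach 34 nt.

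The 2 main forms differed from each other in how the groups lay. The 20-nt read overlapped between groups, at 1735, 1762 and 2087 in control and 1748, 2019 and 2021 in SCI. The 21-nt read did not, at 2169, 2228 and 2306 in control and 2754, 2655 and 3167 in SCI (log2 fold change 0.36 ± 0.12). The 26-nt read was the 16S sequence with the smallest p among those higher in SCI, at 57.1, 60.9 and 50.9 in control and 82.1, 85.4 and 99.7 in SCI (log2 fold change 0.66 ± 0.16, adjusted p = 0.136 in the same edgeR test over sequences). None of these forms passed. A base that is not in the gene at that place followed 1.08% of the reads from base 1 on average, most often an adenosine (0.551%), with no separation between the groups.

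**Figure D2:**
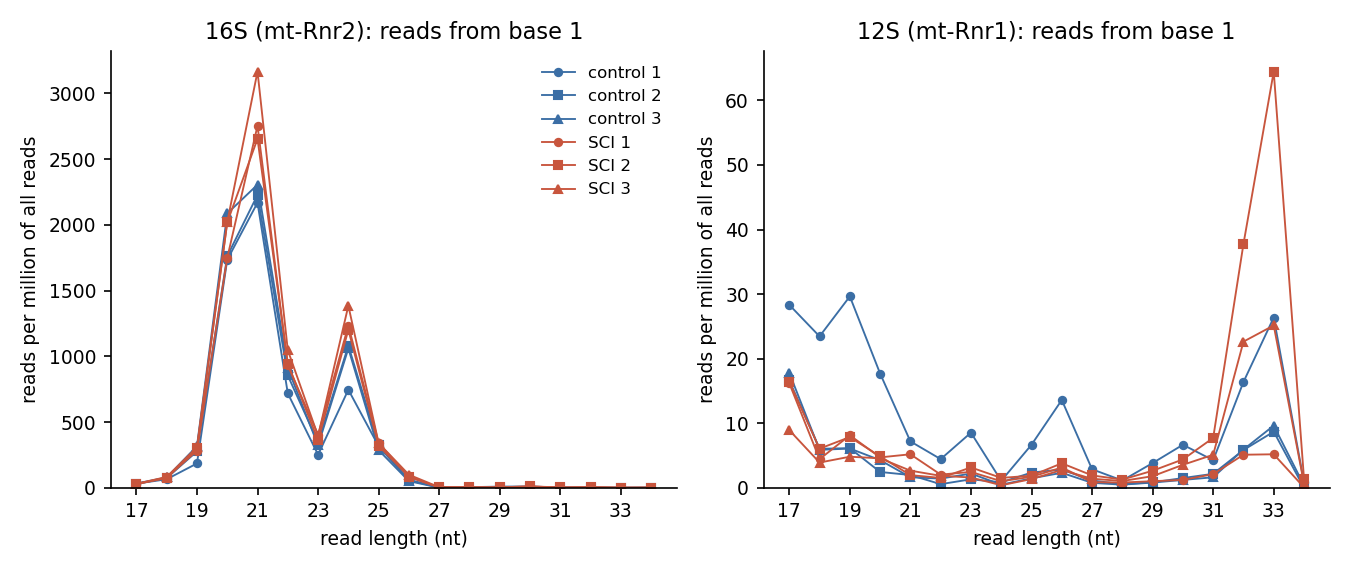
Reads that begin at base 1 of 16S rRNA (left) and of 12S rRNA (right) by read length in nt, in RPM, 1 line per library (control blue, SCI red). The 16S reads peak at 21 and 24 nt in every library, whereas the 12S reads form a short class and a class of 32 to 33 nt whose sizes differ between libraries.

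Other parts of 16S rRNA were lower in SCI. Reads that start at bases 2 to 5 came to 130, 152 and 119 in control and 76.7, 72.8 and 75.7 in SCI. Reads that end at the last base of the gene came to 80.5, 79.4 and 50.9 in control and 29.0, 31.7 and 24.5 in SCI. Both parts were lower in all 3 SCI libraries. Reads from inside the gene overlapped, at 501, 475 and 430 in control and 350, 527 and 360 in SCI. Counted within 16S itself, which does not depend on the library total, there were 2.07, 2.15 and 1.60 reads from bases 2 to 5 per 100 reads from base 1 in control and 0.971, 0.906 and 0.849 in SCI. For reads ending at the last base the same ratio was 1.28, 1.13 and 0.683 in control and 0.367, 0.394 and 0.275 in SCI. These parts were drawn after their values had been seen, so no test is given for them.

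**Figure D3:**
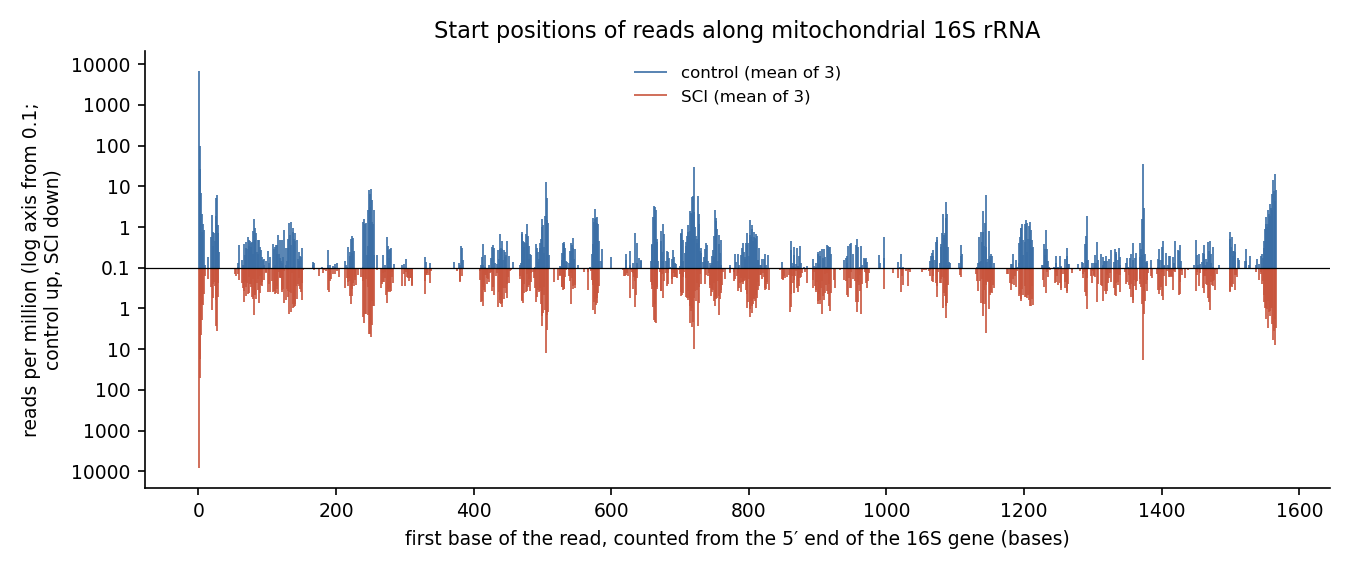
Mean RPM (log axis from 0.1) by the base of the 16S gene at which reads begin, control upward in blue and SCI downward in red. Base 1 exceeds all other starts, and smaller peaks stand near bases 505, 720 and 1373 and at the 3′ end.

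The 3′ end of 16S rRNA carried most of its reads past the end of the annotated gene. The next gene, mt-Tl1, which codes for a leucine tRNA, begins at the following base. Reads that hold at least 12 of the last bases of 16S and run beyond them had no full match in any transcript and so stand outside the 15 genes, and they are given here because they continue this end. The most abundant read of each kind is shown with the bases beyond the annotated end of 16S in capitals. The first reads on into 6 bases of mt-Tl1 (to base 2681 of the chromosome) and closes with an adenosine that the genome does not hold there, the second carries adenosines only, the third stops in mt-Tl1, and the last is the read that ends with the gene.
mt-Tl1 bases and adenosine: tctaacctagagaaggttATTAGGA
adenosines only: ctctaacctagagaaggttAA
mt-Tl1 bases only: ctctaacctagagaaggttATTAGG
last base of 16S: ctctaacctagagaaggtt

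All reads with this 3′ end summed to 52584, of which 38.5% ran into mt-Tl1 and then carried adenosines, 37.0% carried adenosines only, 10.6% ended with the gene, 9.31% ran into mt-Tl1 with nothing added and 4.61% had another tail. A single added A was counted among the adenosines, although mt-Tl1 also begins with A. The tail of 6 mt-Tl1 bases and 1 adenosine alone gave 15542 reads. For every one of these kinds, the highest SCI library lay below the lowest control library.

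On the scale of all reads, those with the 16S 3′ end came to 761, 795 and 462 in control and 206, 317 and 250.1 in SCI, a ratio of means of 0.383. Those with mt-Tl1 bases and then adenosines came to 332, 296 and 153 in control and 66.4, 120 and 98.2 in SCI. Those with adenosines only came to 271, 302 and 189 in control and 75.9, 111 and 86.5 in SCI. Control 3 was the lowest control library for the 3′ end as a whole, and it still lay above SCI 2, the highest SCI library. Set against reads from base 1, there were 12.1, 11.3 and 6.19 reads of the 3′ end per 100 in control and 2.61, 3.95 and 2.81 in SCI. Neuron marker miRNAs were lower in the same 3 libraries (above), and their part and that of read length in this were not tested.

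**Figure D4:**
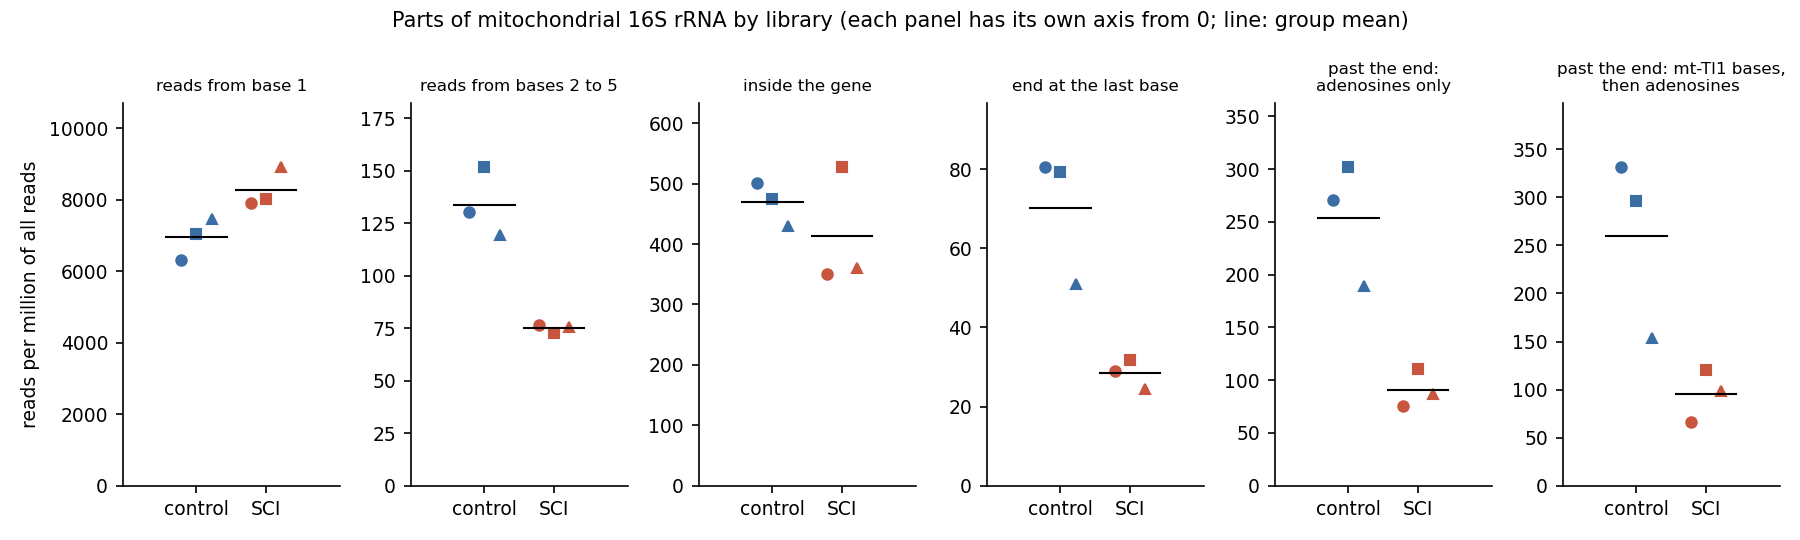
Parts of 16S rRNA in RPM (each panel has its own axis from 0), with the 3 control libraries in blue, the 3 SCI libraries in red and a line at each group mean. Reads from base 1 are higher in SCI, reads inside the gene overlap, and the other 4 parts are lower in all SCI libraries.

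Single read sequences were fitted too. The fit ran on 31242 sequences of all kinds, of which none passed (0%), and 238 of the 46707 sequences assigned to a single place in the 15 genes were abundant enough to enter it. None of the 238 passed, and the smallest adjusted p was 0.136 (edgeR's quasi-likelihood test). Without SCI 1, 9 of those entering that fit passed, 4 higher and 5 lower, beside 9.76% of all sequences. At an unadjusted p under 0.05 there were 54 of them, 11 higher and 43 lower in SCI, beside 16.9% of all sequences in either direction and 5.86% lower. Of the 134 sequences of 16S, 3 were higher and 34 lower at that level. All 14 tested sequences ending at its last base had a log2 fold change below 0 (median -1.32). So did all 21 starting at bases 2 to 5 (median -0.71). Of the 17 starting at base 1, 15 had one above 0 (median 0.36). These signs largely restate the totals of the parts, which were drawn after their values had been seen, and add no support. Lower values were not particular to the ends: of 82 sequences inside 16S, 70 lay below 0 (median -0.80), as did 31 of 42 of 12S (median -0.47). Of the 62 of the mRNAs, 37 lay above 0 (median 0.42). The median over all 31242 sequences was 0.11. Overlapping reads share their source and are not independent.

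The 3 reads of 16S shown next had the smallest p among those lower in SCI. They are printed because they lie at 3 separate places in the gene, with their positions on the plus strand of the mitochondrial chromosome.
bases 1095 to 1113: ctaatcctagccctagccc
bases 1813 to 1836: tataggcaataatcacactataaa
bases 2657 to 2675: ctctaacctagagaaggtt

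The first is the 20-nt form without its first base. It measured 32.7, 30.8 and 29.9 in control and 13.9, 12.5 and 11.4 in SCI, with a log2 fold change of -1.31 ± 0.18, whereas the 20-nt form itself differed by 0.052 ± 0.14. The read from the middle of the gene measured 26.5, 18.2 and 15.9 in control and 4.99, 7.78 and 5.17 in SCI (-1.75 ± 0.30). The read at the 3′ end measured 19.01, 21.7 and 13.8 in control and 8.07, 7.86 and 5.42 in SCI (-1.35 ± 0.27). The groups did not overlap in any of these reads, which adds no support because the reads were picked for their small p. For each the adjusted p was 0.136 in edgeR's quasi-likelihood test. Another peak inside the gene, at base 1373, was not ordered by group: its 18-nt read tattaatggttcgtttgt, named after its values were seen, measured 26.03, 35.4 and 34.1 in control and 4.31, 34.4 and 8.48 in SCI, low in SCI 1 and SCI 3 only.

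The 12S rRNA was far rarer. Per kilobase of gene its mean level was 305 against 5186 for 16S. It measured 380, 216 and 220 in control and 253, 408 and 269 in SCI, with control 1 and SCI 2 highest and the groups overlapping. Its log2 fold change was 0.19 ± 0.26, and it turned negative under TMM scaling (-0.16), in DESeq2 (-0.17), with each distinct sequence counted 1 time (-0.036), with reads of 17 to 26 nt (-0.049) and without SCI 2 (-0.058).

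Reads from the first base of 12S were 39.2% of its reads. They fell into a short and a long class, shown here with the bases beyond the 17-nt form in capitals. The files begin at 17 nt, so any shorter forms of the short class could not be seen. The gene lies on the plus strand at bases 70 to 1024.
12S, 17 nt: aaaggtttggtcctggc
12S, 19 nt: aaaggtttggtcctggcCT
12S, 32 nt: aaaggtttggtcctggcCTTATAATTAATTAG
12S, 33 nt: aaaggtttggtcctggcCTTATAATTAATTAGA

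The 32- and 33-nt reads together measured 42.8, 14.5 and 15.6 in control and 10.3, 102 and 47.8 in SCI. SCI 2, SCI 3 and control 1 were high, the same 3 libraries that held the most reads of 30 to 34 nt overall. The reads of 17 to 20 nt from base 1 measured 99.1, 31.3 and 34.1 in control and 33.5, 35.2 and 22.2 in SCI, high in control 1 only. The reads of 27 to 34 nt from base 1 of 16S were rare beside its shorter forms, at 35.0, 9.35 and 7.03 in control and 10.8, 35.9 and 31.8 in SCI, and were high in the same 3 libraries. At its 3′ end 12S held 46 reads that ended with the gene and 818 that carried added adenosines, with 5.72 to 8.63 tailed RPM in each library and no separation of the groups. The 12S 3′ end thus did not share the lower level of the 16S 3′ end, although the difference between them was not tested.

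The 13 mRNAs together measured 453, 263 and 510.0 in control and 317, 1324 and 586 in SCI. SCI 2 was the highest library for 12 of the 13, beside 47.2% of all gene features. For the sum, SCI 1 lay within the control range. It lay below every control library for mt-Nd3, mt-Nd4l, mt-Nd6 and mt-Co3. Of the 15 genes 14 had a log2 fold change above 0, with a median of 0.85 against 0.31 over all features. None of the 15 passed, against 1.06% of all features (47 of 4423). At an unadjusted p under 0.05 there were 3 (mt-Atp6, mt-Co1 and mt-Cytb) beside 10.9% of all features. Only 16S had groups that did not overlap.

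The single library SCI 2 carried much of this. Without it the median log2 fold change of the 13 mRNAs was 0.056, as against 0.88 with all libraries. The values of mt-Nd3 (-0.87), mt-Nd4l (-0.39), mt-Co3 (-0.040) and mt-Nd5 (-0.022) then lay below 0, and mt-Nd3 did so with all libraries too. Without SCI 1, mt-Atp6, mt-Co1 and mt-Cytb passed, with 5.12% of all features called in that fit. With no filter on low counts mt-Atp6 and mt-Co1 passed, beside 0.765% of all features. In SCI 2 long reads were also most frequent among the mRNA reads, with 17.7% at 30 to 34 nt, against 7.65%, 4.02% and 3.81% in control and 2.63% and 9.77% in SCI 1 and 3. Per 100 reads of nuclear genes the mRNA reads numbered 4.28, 2.12 and 4.09 in control and 3.01, 7.00 and 3.82 in SCI, so that SCI 2 was highest on this scale too and the groups overlapped. The part of read length in this result was not tested.

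Among the mRNAs of cytochrome c oxidase (complex IV), mt-Co1, which codes for the catalytic subunit, was the most abundant. It measured 152, 89.6 and 174 in control and 118, 446 and 203 in SCI (log2 fold change 0.88 ± 0.39, adjusted p = 0.433 in edgeR's quasi-likelihood test). SCI 2 and SCI 3 lay above the control libraries and SCI 1 within them. The log2 fold change of mt-Co1 was 0.21 without SCI 2, and it was 0.50 with reads also found in nuclear transcripts left out and 0.30 with each distinct sequence counted 1 time. Under TMM scaling it was 0.52 and in DESeq2 0.49. The mRNAs of mt-Co2 and mt-Co3, the other core subunits, had log2 fold changes of 0.98 ± 0.48 and 0.85 ± 0.48, and ranged from 15.1 to 88.5 and from 10.9 to 54.6.

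For ATP synthase (complex V), mt-Atp6, which codes for the subunit that holds the proton path, measured 31.0, 16.6 and 41.4 in control and 27.4, 114 and 55.9 in SCI. Its log2 fold change of 1.15 ± 0.46 was the largest of the 15 in the fit to all libraries (adjusted p = 0.354, same test), with SCI 1 again within the control range. The small subunit mt-Atp8 ranged from 8.503 to 38.1 (0.59 ± 0.44). Cytochrome b, mt-Cytb, the only mitochondrial product in complex III, measured 24.2, 14.8 and 30.1 in control and 23.3, 83.6 and 37.3 in SCI (1.06 ± 0.43, adjusted p = 0.367). Without SCI 2 the log2 fold changes of mt-Atp6 and mt-Cytb were 0.49 and 0.39, and with each distinct sequence counted 1 time 0.35 and 0.36.

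The 7 mRNAs of complex I, the NADH dehydrogenase, summed to 180, 106 and 198 in control and 105, 497 and 213 in SCI. The log2 fold changes of mt-Nd1, mt-Nd2 and mt-Nd4 were 0.91 ± 0.43, 0.92 ± 0.47 and 0.92 ± 0.48, those of mt-Nd5 and mt-Nd6 0.71 ± 0.43 and 0.71 ± 0.47, and that of mt-Nd4l 0.41 ± 0.48, which turned to -0.013 in DESeq2 and -0.063 with each distinct sequence counted 1 time. The lowest value was that of mt-Nd3 (-0.15 ± 0.56), at 28.6, 7.46 and 13.4 in control and 4.65, 26.5 and 13.4 in SCI, and it was positive without control 1 (0.50), without SCI 1 (0.27) and with each distinct sequence counted 1 time (0.063). Per kilobase, mt-Co1 (128), mt-Atp8 (94.9) and mt-Atp6 (70.2) stood highest among the mRNAs and mt-Nd6 (7.40), the only gene of the 15 on the minus strand, lowest.

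Where the reads of an mRNA began depended on the gene. In mt-Nd3, which codes for a small subunit of complex I, 67.2% of the reads began at base 1, followed by mt-Atp8 (46.3%), mt-Nd4l (43.6%), mt-Nd6 (12.998%), mt-Nd2 (12.3%), mt-Nd5 (10.8%), mt-Nd1 (8.78%) and mt-Co2 (7.36%). In mt-Co1 (0.164%), mt-Cytb (0.111%), mt-Co3 (0.0715%) and mt-Nd4 (0.0510%) such reads were nearly missing. For mt-Atp6 the counting rule leaves such reads out, because they also lie in mt-Atp8, so its share is not known. The genes mt-Atp6 and mt-Nd4 begin inside the annotated gene before them, and mt-Co3 begins at the last base of mt-Atp6.

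The following reads from base 1 were each the most abundant of their gene, with the first codon in capitals. They are shown because the annotated gene opens directly with the start codon, and the codons include others than ATG, as is known of mitochondrial genes.
mt-Nd1: GTGttctttattaatatcct
mt-Nd2: ATAaatcctatcaccct
mt-Nd3: ATTaacctgtacactgttatcttcatt
mt-Nd4l: ATGccatctaccttcttca
mt-Nd5: ATCaatattttcacaacctcaatct
mt-Co2: ATGgcctacccattccaacttggtctaca
mt-Atp8: ATGccacaactagatacatcaaca

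The 27-nt read of mt-Nd3 measured 7.15, 1.32 and 1.31 in control and 0.410, 3.29 and 2.56 in SCI, highest in control 1. The 24-nt read of mt-Atp8 measured 2.35, 0.472 and 1.31 in control and 1.23, 1.45 and 1.41 in SCI. Both overlapped. The 29-nt read of mt-Co2 was higher in all SCI libraries, at 0.392, 0.189 and 0.408 in control and 0.479, 1.58 and 0.803 in SCI (log2 fold change 1.47 ± 0.54, adjusted p = 0.234 in edgeR's quasi-likelihood test), with SCI 2 again highest. The reads of mt-Nd1, mt-Nd2, mt-Nd4l and mt-Nd5 had log2 fold changes from -0.30 to 0.57 and overlapped between the groups. The most abundant read of mt-Nd6 also began at base 1, with 10 reads in all.

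**Figure D5:**
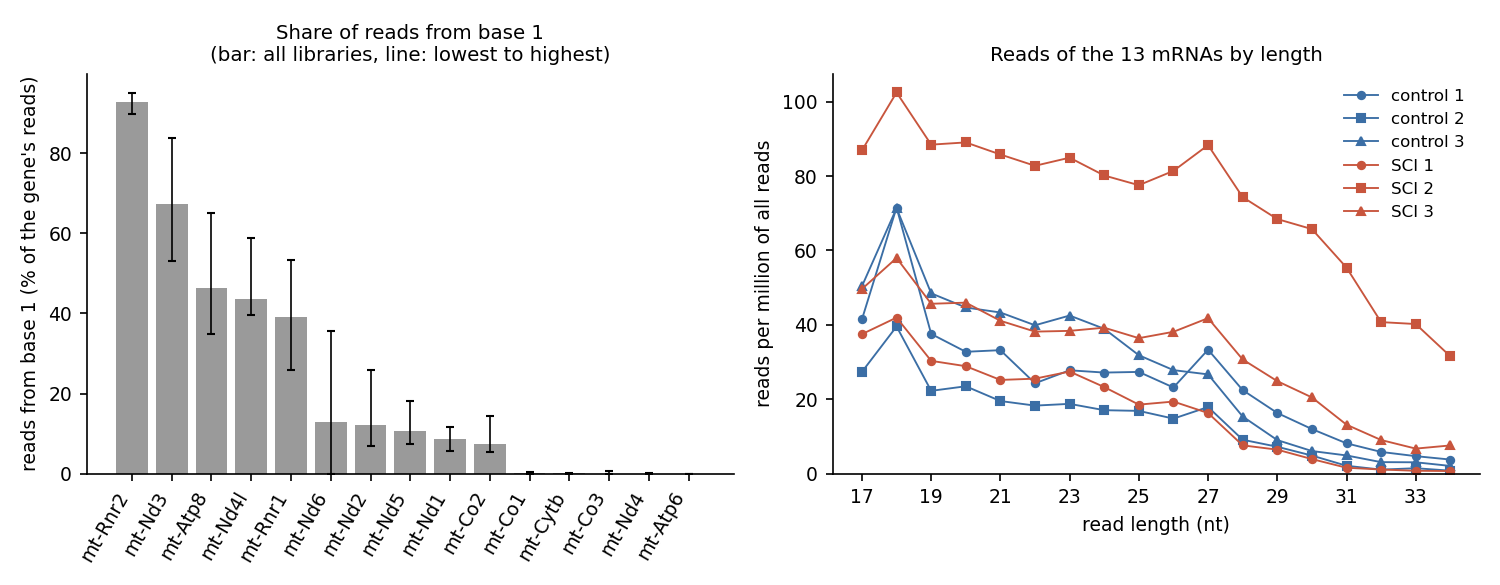
Left, the share of each gene's reads that begin at its first base, in percent (bar, all libraries together, and line, lowest to highest library). For mt-Atp6 the counting rule leaves such reads out, because they also lie in mt-Atp8. Right, reads of the 13 mRNAs by read length in nt, in RPM, 1 line per library (control blue, SCI red): SCI 2 lies above all other libraries at every length.

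In mt-Co1 the most frequent starts lay inside the gene, at bases 826 and 412. Their means over all libraries were 31.4 and 15.1 of 197 RPM for the gene, so most of its reads began elsewhere. The reads below lie on the plus strand at bases 6153 to 6170 and 5739 to 5764, and they are shown because their differences had opposite signs.
mt-Co1, base 826: gcaataatgtctattggc
mt-Co1, base 412: catgcaggagcatcagtagacctaac

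The first was the most abundant mRNA read of all. It measured 38.4, 16.4 and 24.0 in control and 11.3, 15.9 and 15.8 in SCI, lower in all SCI libraries by a narrow gap, with a log2 fold change of -0.87 ± 0.34 (adjusted p = 0.253 in edgeR's quasi-likelihood test). The second measured 0.959, 0.756 and 1.43 in control and 2.05, 5.85 and 4.02 in SCI, higher in all SCI libraries (1.90 ± 0.47, adjusted p = 0.136 in the same test). A 21-nt read from the same base 412 gave 1.90 ± 0.57. Both reads from base 412 were among the 3 picked for the smallest p higher in SCI. Reads of all lengths from base 826 overlapped, at 50.4, 23.1 and 34.7 in control and 18.7, 33.8 and 28.0 in SCI. Those from base 412 overlapped too, at 5.58, 4.35 and 10.4 in control and 8.54, 40.0 and 21.6 in SCI. Among the reads of mt-Atp6 the most abundant, aaaggacgaacatgaaccc from its base 190, measured 0.872, 0.0945 and 1.06 in control and 1.44, 2.35 and 2.61 in SCI, also higher in all SCI libraries (1.56 ± 0.64, adjusted p = 0.277). Reads of all lengths from that base overlapped, with SCI 1 at 1.914 and control 3 at 1.920. The mRNA reads named last, from base 412 of mt-Co1 and from mt-Atp6, have exact copies in nuclear pseudogenes, while the read from base 826 of mt-Co1 has none.

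Copies of mitochondrial genes in the nuclear genome limit what these counts show for several mRNAs. All reads of mt-Co2, 99.7% of those of mt-Co3, 99.6% of those of mt-Atp6 and 99.0% of those of mt-Nd4l were also found in nuclear transcripts. The share was 61.5% for mt-Nd4, 56.7% for mt-Co1, 29.5% for mt-Nd2, 0.231% for mt-Nd1 and 0.0925% for 16S. The copies were unprocessed pseudogenes, such as Gm13340 on chromosome 2 (22588103 to 22589647, minus strand), which holds mt-Co1 sequence, and Gm10925 on chromosome 1 (24613974 to 24614651, minus strand), which holds mt-Atp6 sequence. Reads of a gene and of its exact copy cannot be told apart here. With such reads left out, mt-Co2, mt-Co3, mt-Atp6 and mt-Nd4l gave no value, 10 of the other 11 genes had a log2 fold change above 0, and mt-Co1 moved from 0.88 to 0.50.

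The mean length of the reads, which the choice of genes did not use beyond the 17 to 34 nt window, was tested for 3 genes with a two-sided exact permutation test, whose smallest possible p with 3 libraries in each group is 0.1. Reads of 16S averaged 21.5, 21.5 and 21.4 nt in control and 21.6, 21.6 and 21.6 nt in SCI, a difference of 0.115 nt that did not overlap (exact p = 0.1, adjusted over the 3 genes 0.15). Reads of mt-Co1 averaged 21.5, 21.3 and 21.4 nt in control and 21.6, 24.0 and 22.9 nt in SCI (exact p = 0.1, adjusted 0.15). Reads of 12S averaged 23.2, 22.4 and 22.1 nt in control and 21.8, 25.7 and 24.6 nt in SCI and overlapped (exact p = 0.4). Of the 13 mRNAs, mt-Co1 was the only one whose mean lengths did not overlap between the groups. SCI 2 had the longest reads in all 13, SCI 1 had the shortest in 10, and control 1 exceeded SCI 3 in 4 (mt-Nd4l, mt-Co2, mt-Co3 and mt-Atp8).

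The first base was A in 41.4% to 44.0% of the mRNA reads of each library against 32.6% A in the genes themselves. These reads include those from base 1, which open with the A of the start codon in the genes shown above except mt-Nd1. Their part in the share of A was not tested. The last base was C in 39.5% to 42.0% against 25.1% C. The groups overlapped at both ends. Antisense reads came to 66.6, 76.8 and 86.2 in control and 52.6, 175 and 94.1 in SCI, or 1.06 per 100 sense reads. It was 0.138 for 16S, which held most of the sense reads. The ratio was 516 for mt-Nd6, whose opposite strand carries the RNA of the other genes, 34.7 for mt-Nd5, 33.5 for mt-Co2, 17.5 for mt-Cytb, 12.2 for mt-Nd4l, 11.4 for mt-Nd4 and 11.3 for mt-Co3. Of the borders between these genes and their neighbours, that of 16S and mt-Tl1 described above held the most reads, 5015 with at least 3 bases on each side. The border of mt-Tv, the valine tRNA gene, and 16S held 69, that of 12S and mt-Tv held 1, and the other borders held 0 to 24 each.

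Other genes of the same pathways were covered by lists. All 22 mitochondrial tRNAs were tested and none passed, but all had a log2 fold change above 0 (median 0.73), 18 had an unadjusted p under 0.05 (10.9% of all features did), and 17 were higher in all SCI libraries (15.4% of all features). The number that passed was 4 with no filter on low counts, 3 with the replicate block, 2 without control 3 and 2 without SCI 1. The most abundant, mt-Ts2 (a serine tRNA), measured 3147, 2033 and 3219 in control and 3825, 4975 and 3804 in SCI (0.59 ± 0.18), and mt-Tv measured 416, 282 and 477 in control and 602, 742 and 539 in SCI (0.68 ± 0.22). Both values turned negative with each distinct sequence counted 1 time (-0.19 and -0.22), where the median over all features was also negative (-0.25).

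Of 36 nuclear genes of complex I, 11 were tested and none passed (10 above 0, median 0.43), although 1, Ndufs7, passed without SCI 2 or with no filter on low counts. Ndufs7 had the highest count through 1 library, SCI 1 (201 against 8.37 to 20.3 in the other libraries), and Ndufv2 ranged from 0.378 to 1.45. Of 39 nuclear genes of complexes II to V, 19 were tested and none passed (15 above 0, median 0.32), with Atp5a1 at 2.55 to 5.85 and Atp5b at 1.70 to 3.14. Of 31 genes of mitochondrial transcription, RNA processing and decay, only Fastk and Grsf1 were tested. Grsf1, which codes for a protein of mitochondrial RNA granules, measured 0.610, 0.378 and 0.490 in control and 1.16, 0.940 and 1.10 in SCI, higher in all SCI libraries (1.06 ± 0.43, adjusted p = 0.368 in edgeR's quasi-likelihood test). Fastk overlapped (0.30 ± 0.52).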

How the data were processed

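The authors deposited 1 table per library with each distinct read sequence and its raw read count, per the file headers. Reads were 17 to 34 nt long. How adapters were trimmed and reads filtered is not given in the sources used here. Per the submitters' processing notes the build is GRCm38. Per the labels' protocols, each sample was collected individually, mirVana RNA went into the libraries, and the adapters were of the HD kind (degenerate ends that lessen ligation bias). Nothing else in the labels says how the replicates differ, so p-values measure the spread between these libraries.

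Every read was matched here to GENCODE release M21 transcripts (GRCm38), sense and without mismatch, in the order miRNA hairpins (1174), mitochondrial tRNAs (22), the 15 genes, other small noncoding RNA, other genes. Reads found in up to 5 genes of a class formed a joint count, and those in more were left out (0.316% to 0.539% of reads). No genome sequence was used, and modified bases read as mismatches are lost. The matching was checked against a plain search and the fits were tested on simulated data. RPM values are reads per 1000000 reads of the library, computed here. Gene and sequence counts were fitted with edgeR 4.0.16 (quasi-likelihood test, R 4.3.3) on all 6 libraries without covariates, with all reads as library size, filterByExpr at a minimum count of 10 (sequences: also a total of at least 10) and Benjamini-Hochberg adjustment, and an adjusted p under 0.05 passed. Each SE was obtained from the F statistic, as the log2 fold change over its square root. Alternatives included TMM scaling, DESeq2 1.42.0, no filter, distinct sequences counted 1 time, 17 to 26 nt only, reads with nuclear copies left out, each library left out and the replicate number as a block. No 2 libraries agreed within sampling noise (chi-square per degree of freedom 117 to 653). A count's 95% Wilson half-width was 0.433% to 0.681% of the value for 16S and 14.1% to 38.4% for mt-Nd6, covering counting error only, as reads carry no molecular identifiers. Tables and plots were made with Python 3.11.15, pandas 2.3.3, numpy 2.4.6, scipy 1.17.1 and matplotlib 3.10.9.

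The genes and lists were chosen with earlier results of these data known. Named were all 15 genes, the 3 most abundant sequences of each rRNA and the most abundant of each mRNA, the 3 of smallest p in each direction, and of each list every passing gene and the 2 with the highest count; other sequences shown were chosen after their values were seen.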

Additional observations from a re-analysis of the deposited data

How the results depend on the processing

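None of the 15 genes passed in the fit to all libraries or in 11 of the 13 alternatives; 2 passed with no filter on low counts (mt-Atp6 and mt-Co1) and 3 without SCI 1 (those and mt-Cytb), so that the count ranged from 0 to 3 over the left-out libraries. Of the sequences, 0 passed in all alternatives except without SCI 1, where 9 did (0 to 9 over the left-out libraries). That fit called 9.76% of all sequences.

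The SCI minus control difference of 16S, 1180 RPM with all libraries (885 to 1403 with a library left out), was 2080 when scaled to miRNA hairpin reads and -902 with each distinct sequence counted 1 time. On that last scale the difference was -83.8 for 12S (38.3 in the main counts, -10.7 to 92.3 with a library left out) and 2001 for the 13 mRNAs (333, and 42.5 to 546). The differences in mean length kept their sign in all 8 alternatives run for each gene.

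Of 191 alternative log2 fold changes of the 15 genes, 170 kept direction and side of the threshold, 5 newly passed and 16 reversed. With each distinct sequence counted 1 time, 16S (-0.21), 12S (-0.036), mt-Nd3 (0.063), mt-Nd4l (-0.063), mt-Ts2 (-0.19), mt-Tv (-0.22), Ndufs7 (-0.51), Atp5a1 (-0.10) and Atp5b (-0.21) reversed. The median over all features in that setting was -0.25, against 0.31 in the main fit. Scaling reversed 16S (-0.11 with TMM, -0.10 with DESeq2), 12S (-0.16 and -0.17), mt-Nd4l (-0.013 with DESeq2) and Fastk (-0.022 with DESeq2), and reads of 17 to 26 nt reversed 12S (-0.049). With a library left out the range crossed 0 for 12S (-0.058 to 0.51), mt-Nd3 (-0.87 to 0.50), mt-Nd4l (-0.39 to 0.81), mt-Nd5 (-0.022 to 1.06), mt-Co3 (-0.040 to 1.23) and Fastk (-0.042 to 0.63). Among named sequences, the 20-nt 16S read reversed under TMM scaling (-0.028) and the 19-nt mt-Nd4l read under TMM scaling (-0.060), under the replicate block (-0.28) and with a library left out (-0.52 to 0.49). The 27-nt mt-Nd3 read (-1.12 to 0.68), the 25-nt mt-Nd5 read (-1.18 to 0.27), the 24-nt mt-Atp8 read (-0.42 to 0.55; 0.15 under the block) and the 19-nt 12S read (-1.37 to 0.18) also reversed. The causes were not tested.

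Over all gene features, 47 passed in the fit to all libraries, 98 with TMM scaling, 111 in DESeq2, 319 with no filter, 4 with each distinct sequence counted 1 time, 89 with the replicate block and 0 to 285 with a library left out. Replicate numbers did not pair the libraries (same-number correlations of -0.145 to 0.0738). With the number as a block 0 of the 15 genes, 0 of their sequences and 3 mitochondrial tRNAs passed. With a library left out, 0 to 2 mitochondrial tRNAs and 0 to 1 nuclear genes of complex I passed.

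Chosen after seeing the data, the 16S parts were recomputed with each library left out. The SCI over control ratio was 1.14 to 1.24 for reads from base 1, 0.532 to 0.601 for bases 2 to 5, 0.355 to 0.436 for reads ending at the last base, 0.318 to 0.396 with adenosines only and 0.303 to 0.423 with mt-Tl1 bases and adenosines. Per miRNA hairpin reads these ratios were 1.26, 0.589, 0.424, 0.378 and 0.386.

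Counts of single mRNA sequences were low, which limits what the sequence fit can show for them.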
